A study of Homo sapiens with 4 samples.

Results

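CEBPB and CEBPD encode C/EBPβ and C/EBPδ, members of the CCAAT/enhancer-binding protein family. Their contacts were read from H3K27ac HiChIP libraries of IMR90 cells, human fibroblasts of embryonic lung. In HiChIP, neighbouring DNA ends are ligated inside fixed nuclei, and an antibody then pulls down the ligated pieces. The mark pulled down was acetylated lysine 27 of histone H3 (H3K27ac), found at active enhancers and promoters. Each listed interaction pairs 2 anchors, the acetylated regions at its ends, and carries the number of paired-end tags (PETs) linking them. On hg19, an interaction was counted for CEBPB if at least 1 anchor overlapped chromosome 20 from 48750000 to 49100000, where the gene lies from 48807120 to 48809227. For CEBPD the region was chromosome 8 from 48550000 to 48750000, with the gene from 48649476 to 48650726. Of 1330388 interactions in the 4 libraries together, 2544 belonged to the CEBPB locus and 315 to the CEBPD locus, 2859 in all.

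Each group was a single library. The control library came from cells labelled wild type with control treatment. The 3 senescent libraries are named by their hairpins: shcontrol, shMETTL3, which targets METTL3, and shMETTL14, which targets METTL14. METTL3 and METTL14 form the enzyme that writes N6-methyladenosine on RNA. Senescence was driven by an inducible fusion of oncogenic H-RAS to the estrogen receptor (ER:RAS), so the model is oncogene-induced arrest in 1 cell line. The label of the control library names no hairpin, and the shared treatment text writes METTL4 where the genotype label has METTL14. Both knockdown libraries were compared with the same senescent shcontrol library. Depth was 552029 to 998378 PETs per library, and 62.2% to 66.2% of interactions held a single PET. No library had a replicate, so every difference is between 2 libraries, and all intervals (95%) cover counting error only. The fibroblast label was not checked against marker genes, since contacts give no expression values.

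C/EBP proteins are basic leucine zipper factors that bind DNA as homodimers or as heterodimers within the family. C/EBPβ is known to drive inflammatory genes such as those of interleukin 6 and interleukin 8 in oncogene-induced senescence, and its transcript gives long activating and short inhibitory protein forms. C/EBPδ is known as an early responder to inflammatory cytokines in many cell types. Both genes have no intron and lie in neighbourhoods of distal regulatory elements.

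In the gene order of RefSeq on GRCh38.p14, the lncRNA genes PELATON, LINC01270 and LINC01271 and then PTPN1, which encodes a protein tyrosine phosphatase, follow CEBPB at higher positions, and CEBPB-AS1, LINC01273, LINC01275 and PEDS1 precede it. These neighbours were not placed on the anchors, which are on hg19. The anchor over CEBPB began 1263 bp before the gene in the senescent anchor set and 5557 bp before it in the control set, so the sequence just before the gene was inside the anchor in every library. RefSeq lists 2 starts for CEBPB, and the 300 bases around each (250 before and 50 after the start, plus strand) are shown because they are the acetylated promoter whose contacts are described. The first window is chr20:50190333-50190632 and the second chr20:50190580-50190879, both on GRCh38.p14. Capitals mark matches, on either strand, to the TATA box TATAAA, to the CCAAT box CCAAT, to the GC box GGGCGG and to the cAMP response core TGACG.
CEBPB start 1: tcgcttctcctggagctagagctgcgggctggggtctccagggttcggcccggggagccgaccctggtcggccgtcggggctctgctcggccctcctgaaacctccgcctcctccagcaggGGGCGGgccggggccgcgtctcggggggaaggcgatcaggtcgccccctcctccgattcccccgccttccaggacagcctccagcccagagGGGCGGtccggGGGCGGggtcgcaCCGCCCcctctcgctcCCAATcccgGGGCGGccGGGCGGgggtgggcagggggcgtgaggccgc
CEBPB start 2: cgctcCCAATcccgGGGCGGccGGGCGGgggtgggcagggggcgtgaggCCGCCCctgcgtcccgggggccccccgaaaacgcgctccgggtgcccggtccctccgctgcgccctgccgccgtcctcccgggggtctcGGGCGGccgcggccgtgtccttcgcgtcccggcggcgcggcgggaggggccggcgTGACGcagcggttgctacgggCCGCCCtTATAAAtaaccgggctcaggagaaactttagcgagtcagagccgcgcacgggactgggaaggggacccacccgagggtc
The first window held 6 matches to GGGCGG, and the second held 5, where 45.0% of the 35116 promoter windows of the table hold at least 1. TATAAA occurred only in the second window, 29 bases before the start, and is found in 11.5% of all windows. TGACG also occurred only there, 57 bases before the start, against 24.6% of all windows. CCAAT occurred at 1 site that both windows share, against 34.6%. The C/EBP motif TTGCNNAA and the AP-1 motif TGANTCA had no match in these letters, against 10.5% and 7.71% of all windows. GC content was 77% and 76.7%, and the median over all windows was 58.7%. No promoter sequence is given for CEBPD.

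The CEBPB locus held more contacts than the CEBPD locus in every library. At CEBPB, control had 2264 PETs, senescent shcontrol 1139, shMETTL3 1574 and shMETTL14 1899. As counts per 1000000 PETs of the library (CPM) these were 2268 (2175 to 2363), 2063 (1945 to 2187), 2523 (2400 to 2651) and 2028 (1938 to 2121). The shMETTL3 library stood highest, and its interval did not overlap those of the other libraries. At CEBPD the counts were 299, 97, 100 and 166 PETs, or 299.5 (266 to 335), 176 (142 to 214), 160.3 (130.4 to 195) and 177 (151 to 206) CPM. Control stood above the senescent libraries, whose intervals overlapped each other. CEBPB had 7.57 times the PETs of CEBPD in control (6.71 to 8.57), 11.7 times in senescent shcontrol (9.54 to 14.6), 15.7 times in shMETTL3 (12.9 to 19.5) and 11.4 times in shMETTL14 (9.76 to 13.5). The CEBPB region is 350 kb long and the CEBPD region 200 kb. Per covered kb of anchor, CEBPB stood at 11.1 to 19.7 CPM and CEBPD at 5.09 to 7.05.

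**Figure D1:**
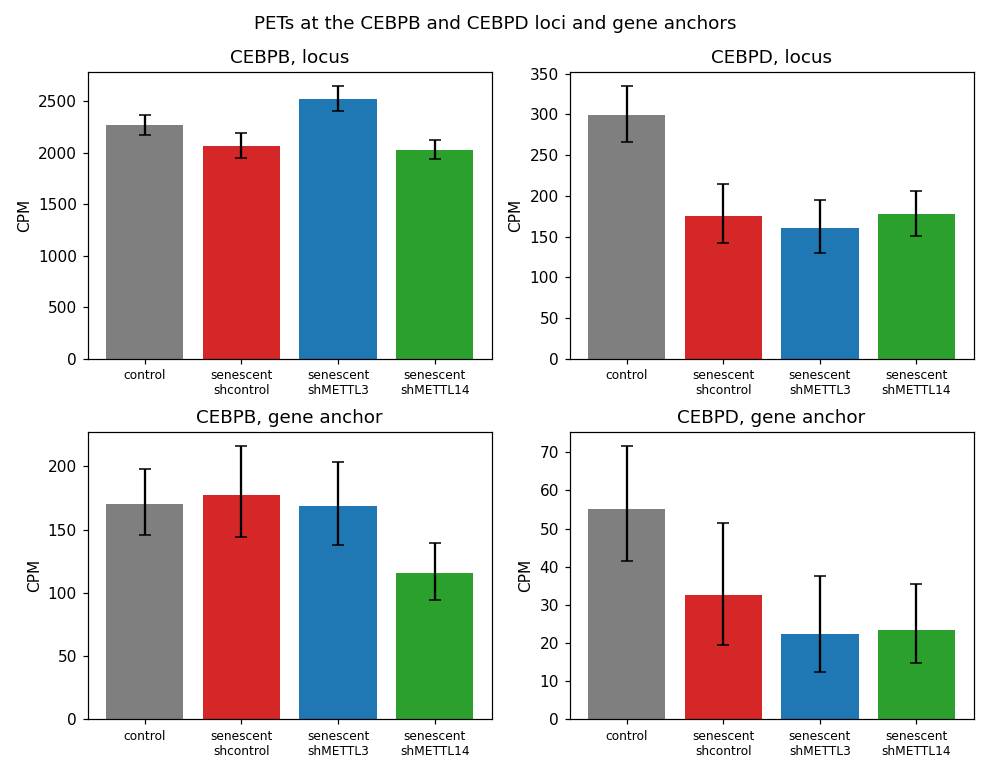
CPM (y axis, from 0) in the 4 libraries for all interactions of each locus (top) and for those of the anchor over the gene (bottom), with exact Poisson intervals of 95% as error bars. At the CEBPB locus shMETTL3 was highest with 2523, at the CEBPB gene anchor shMETTL14 was lowest with 115, and at CEBPD control was highest with 299.5 and 55.1.

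Anchors over the genes themselves carried a small part of these contacts. The CEBPB anchor had 170 PETs in control, 98 in senescent shcontrol, 105 in shMETTL3 and 108 in shMETTL14, which is 7.51%, 8.60%, 6.67% and 5.69% of the locus. It had more PETs than 93.8% to 97.9% of all anchors of its library, and ranked 8, 6, 9 and 11 among the anchors of its locus. The CEBPD anchor had 55, 18, 14 and 22 PETs, 13.3% to 18.6% of the locus, and more than 55.6% to 86.6% of all anchors. With so few PETs, differences at the CEBPD anchor among the senescent libraries were not detectable at this depth.

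Senescent shcontrol was compared with control first, to ask how the contacts of both genes differ between these libraries. The control label names no hairpin, so senescence, hairpin and anchor set cannot be told apart in this comparison. The share of PETs at the CEBPB locus was 0.910 of control (0.847 to 0.977), and at its gene anchor 1.04 (0.805 to 1.34), which became 0.9723 under TMM scaling and 2.21 per covered kb (13.8 kb in control, 6.5 kb in the senescent set). At CEBPD the locus stood at 0.587 (0.462 to 0.740) and the gene anchor at 0.592 (0.327 to 1.02). Both locus ratios changed side with the measure. Senescent and control libraries use different anchors, and those of control covered 204 against 128 kb at CEBPB and 58.8 against 25.1 kb at CEBPD. Per covered kb the CEBPB locus stood at 1.45 and the CEBPD locus at 1.37 of control. With both ends in anchors shared by the sets, CEBPB stood at 0.992 (0.918 to 1.07) and CEBPD at 1.18 (0.896 to 1.54), where all such PETs of the library stood at 1.24. A direction of change at either locus between control and senescence therefore depended on the measure. Among all 350-kb tiles of the genome the median ratio was 0.916 and 50.6% lay above the CEBPB locus, and among 200-kb tiles the median was 0.898 and 76.4% lay above the CEBPD locus. The flanks of 1 Mb on each side stood at 1.32 (1.24 to 1.41) for CEBPB and 0.834 (0.779 to 0.894) for CEBPD. The rest of chromosome 20 stood at 1.01 and the rest of chromosome 8 at 1.19.

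The difference at CEBPD came with fewer anchors. The region held 12 control anchors but only 5 senescent ones. Of its 12 merged anchors (overlapping anchors joined over the libraries), 7 occurred in the control set alone, and these had 6 to 29 PETs each in control. The 5 shared ones included the gene anchor and the anchor from 48568295 to 48576020, at -78.6 kb from the gene start, which had the most PETs in control (107) and also in senescent shcontrol (40), in shMETTL3 (56) and in shMETTL14 (88). Over the whole series 42.0% of the merged anchors of the control set had no senescent counterpart. At CEBPB, 21 of 28 merged anchors were shared, 5 were in control alone and 2 in the senescent set alone.

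Single anchors were held against a size rule: a 2-fold difference with an interval excluding 1, tested where both libraries together held 50 PETs or more. Against control, only merged anchors present in both sets were tested, at the locus and over the genome. Loss or gain of a whole anchor was therefore not counted. The control anchor from 48982117 to 48986965, with 65 PETs in control and 0 in senescent shcontrol, was thus not tested. Between senescent shcontrol and control, 1 of 20 tested CEBPB anchors was higher and 0 lower, where the rule called 15.3% of 15109 anchors higher and 15.4% lower. At CEBPD 0 of 4 were called. The CEBPB anchor that was higher lies from 49011189 to 49018908, 208 kb above the gene start. It had 35 PETs in control and 55 in senescent shcontrol, 74 in shMETTL3 and 110 in shMETTL14. Its ratio in senescent shcontrol was 2.84 (1.83 to 4.47), with 7.34 kb covered in the senescent set and 4.93 kb in control, and its log2 ratio per covered kb was 0.91. Of 10 other tested anchors 30 to 200 kb above the gene start, 9 had a log2 ratio below 0. Of 5 at 230 to 300 kb, all 5 lay above 0. These ranges were chosen after the values were seen, and anchors of the locus share PETs, so the counts are no test. Over the genome, 50.03% of the 15109 tested anchors lay above 0. Among the 9, intervals held 1 for the anchors from 48882188, 48948158 and 48954416. Among the 5, intervals held 1 for those from 49065242, 49075421 and 49099074. Per covered kb the contrast between these ranges was mostly gone, with 8 of the 10 and all 5 above 0. The anchor from 48898530 to 48916177 had 361 PETs in control and 106 in senescent shcontrol, a ratio of 0.531 (0.424 to 0.661). The anchor from 48856331 to 48880780 had 341 and 98, a ratio of 0.520 (0.411 to 0.652). Covered length there was 17.6 kb in control and 8.76 kb in the senescent set, and 24.4 and 8.87 kb, and per covered kb their log2 ratios were 0.10 and 0.52. The part of anchor length in these ratios was not tested.

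**Figure D2:**
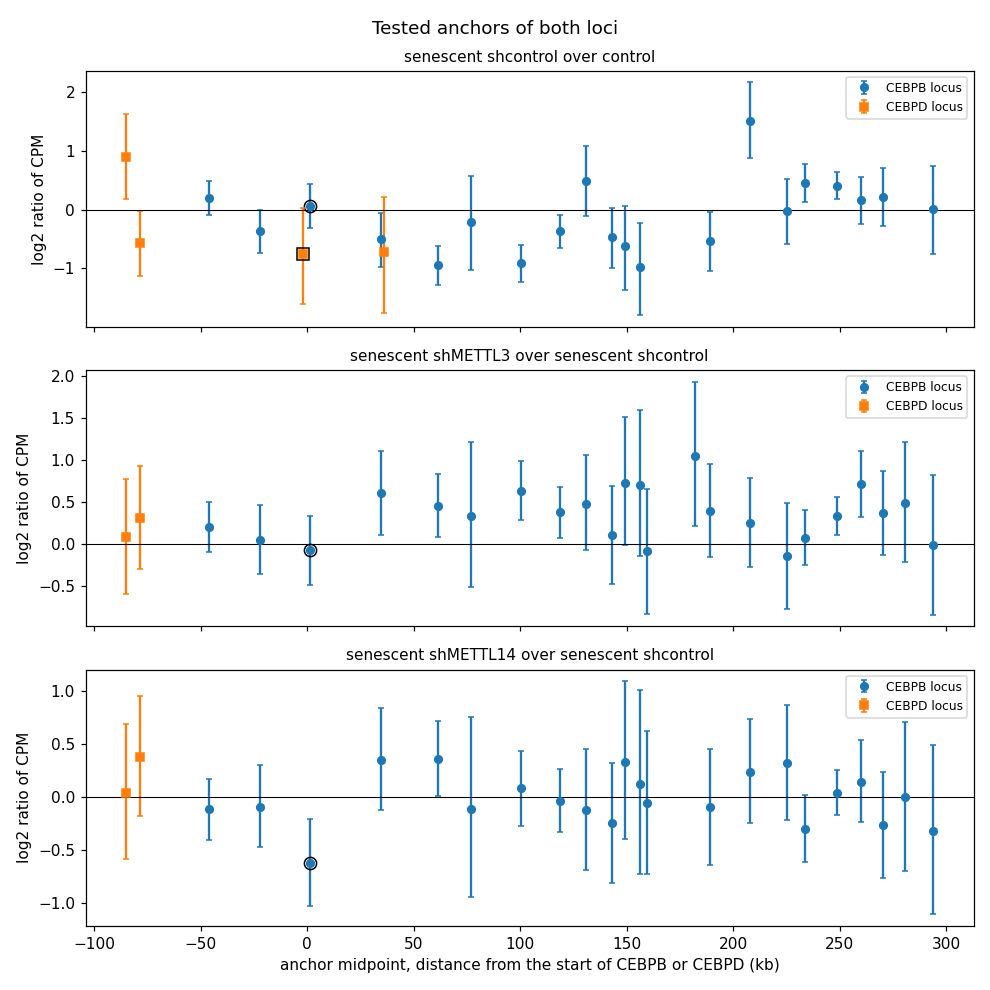
Log2 ratio of CPM (y axis) of each tested anchor against the distance of its midpoint from the start of CEBPB or CEBPD (x axis, kb), with 95% intervals as error bars and gene anchors ringed, for the 3 comparisons. In the shMETTL3 comparison most CEBPB anchors lie above 0, and in the shMETTL14 comparison the ringed CEBPB gene anchor lies lowest at -0.62.

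The shMETTL3 library had more PETs for its depth at the CEBPB locus than senescent shcontrol. Both libraries use the same anchors. The locus ratio was 1.22 (1.13 to 1.32), and 10.2% of 3544 tiles of the same width had a higher ratio (median 0.959). The CEBPB anchor stood at 0.948 (0.713 to 1.26), an interval that holds both 1 and the locus ratio, so a departure of the gene anchor from its locus was not shown. The flanks of 1 Mb on each side stood at 1.05 (0.980 to 1.12). Of 23 tested anchors in the locus, 19 had a log2 ratio above 0 with a median of 0.36, where 49.2% of all 12279 tested anchors lay above 0 and the median was -0.01. Anchors of the locus share PETs, so these are not independent. The size rule called 1 of the 23 higher and 0 lower, against 1.86% and 1.32% of all anchors. The 1 called anchor, from 48988029 to 48990550, is small, with 18 PETs in senescent shcontrol and 42 in shMETTL3 (2.06, 1.16 to 3.81). It had 26 PETs in control and 28 in shMETTL14. The anchor from 49065242 to 49069109 held 161 PETs in shMETTL3 against 87 in senescent shcontrol, a ratio of 1.64 (1.25 to 2.15), below the 2-fold rule. It had 141 PETs in control and 163 in shMETTL14. By span, the ratio of the locus was 1.32 under 100 kb (1.18 to 1.47; whole library 1.07) and 1.14 at 100 kb or more (1.02 to 1.27; whole library 0.920).

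At CEBPD, shMETTL3 stood at 0.912 of senescent shcontrol (0.683 to 1.22) over the locus and at 0.688 (0.317 to 1.46) at the gene anchor. These intervals include both a fall and a rise. PETs of 100 kb or more numbered 36 in shMETTL3 and 54 in senescent shcontrol, a ratio of 0.590 (0.376 to 0.916), while the whole library stood at 0.920 for such spans. Under 100 kb the counts were 64 and 43 and the ratio 1.32 (0.881 to 1.99). The share of CEBPD PETs at 100 kb or more was 36.0% in shMETTL3 (26.6 to 46.2), 55.7% in senescent shcontrol (45.2 to 65.8), 56.6% in shMETTL14 (48.7 to 64.3) and 57.9% in control (52.0 to 63.5). The shMETTL3 library thus stood lowest. Over whole libraries the shares were 42.2%, 45.9%, 44.4% and 46.7% in the same order, also lowest in shMETTL3. At CEBPB the shares were 49.0%, 52.6%, 46.9% and 50.3% in that order. Of the 64 PETs under 100 kb at CEBPD in shMETTL3, single interactions held 20 and 16.

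In shMETTL14 the CEBPB locus as a whole was close to senescent shcontrol, at 0.983 (0.913 to 1.06), and the gene anchor was lower, at 0.650 (0.490 to 0.863), a log2 ratio of -0.62. The difference did not reach the size rule, which called 0 of the 22 tested anchors of the locus, against 2.79% higher and 1.37% lower over all 16168 tested anchors. Of those, 7.85% had a lower log2 ratio than the CEBPB anchor, and for 9.40% the interval lay below 1. The CEBPB anchor also stood at 0.685 of shMETTL3 (0.519 to 0.905). In CPM it had 170.3 in control (146 to 198), 178 in senescent shcontrol (144 to 216), 168 in shMETTL3 (138 to 204) and 115 in shMETTL14 (94.6 to 139). The shMETTL14 interval lay below those of control and senescent shcontrol and overlapped that of shMETTL3 at its edge. At CEBPD the shMETTL14 locus stood at 1.01 (0.781 to 1.31) and the gene anchor at 0.720 (0.369 to 1.43).

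The contacts of the CEBPB anchor ran towards higher positions. Partners on that side held 80.0% of its PETs in control (73.2 to 85.7), 84.7% in senescent shcontrol (76.0 to 91.2), 78.1% in shMETTL3 (69.0 to 85.6) and 76.9% in shMETTL14 (67.8 to 84.4). This is the side on which PELATON, LINC01270, LINC01271 and PTPN1 follow in the gene order. The CEBPD anchor faced the other way, towards the side of its neighbour SPIDR, a DNA repair gene. Partners at higher positions, the side of PRKDC, which encodes a DNA repair kinase, held 23.6% of its PETs in control (13.2 to 37.0), 22.2% in senescent shcontrol (6.41 to 47.6), 0 of 14 PETs in shMETTL3 (up to 21.4% by 3 counts) and 36.4% in shMETTL14 (17.2 to 59.3). Within 500 kb of the gene start lay 91.2% to 95.2% of the PETs of the CEBPB anchor and 81.8% to 100% of those of the CEBPD anchor.

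**Figure D3:**
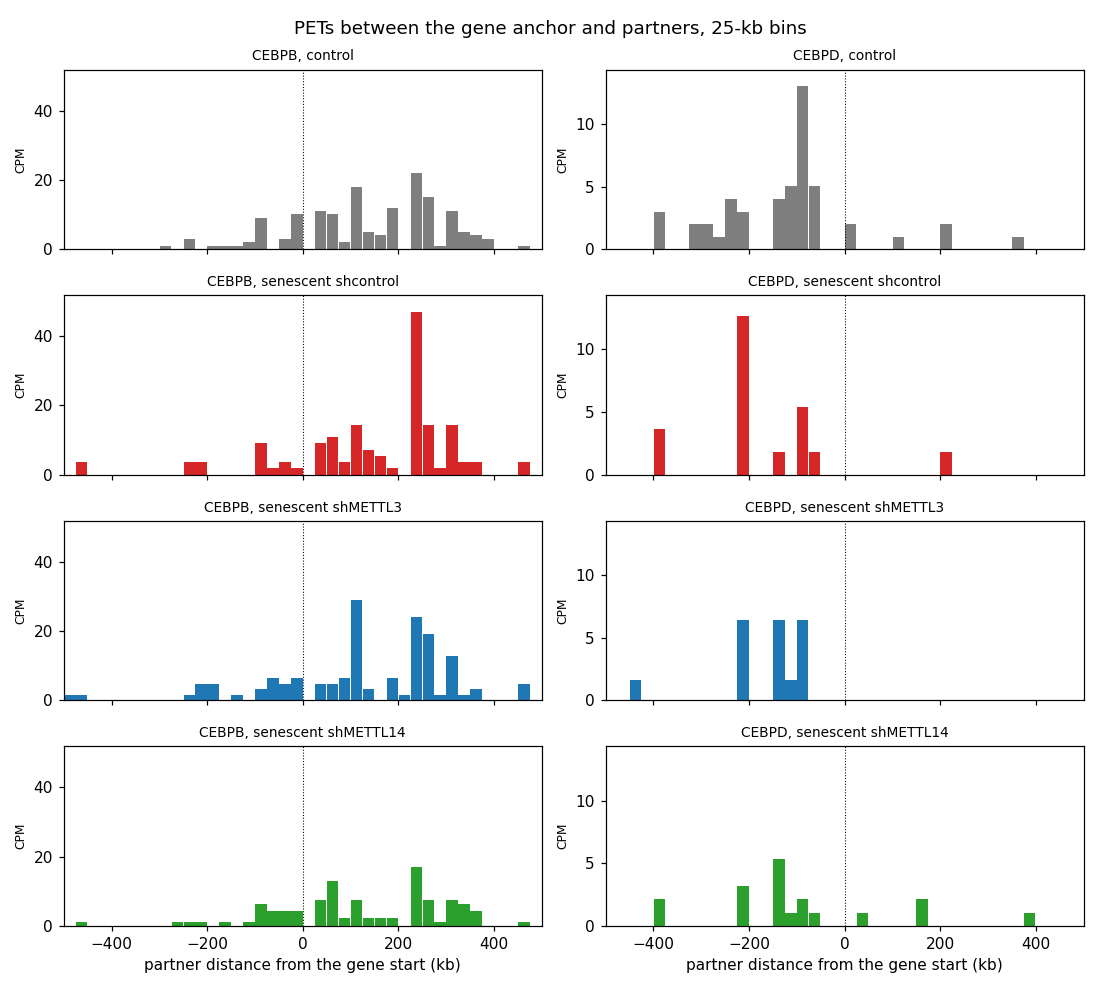
CPM (y axis) between the gene anchor and its partners in 25-kb bins of distance from the gene start (x axis, kb), for CEBPB (left) and CEBPD (right) in the 4 libraries. CEBPB contacts spread to the right, and the bin that starts at 225 kb is the highest in control (22.0 CPM), senescent shcontrol (47.1) and shMETTL14 (17.1), while in shMETTL3 the bin at 100 kb (28.8) stands above it (24.04). CEBPD contacts lie mostly to the left.

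The partner with the most CPM to CEBPB, summed over the libraries, was a distal anchor from 49046713 to 49064727, with its midpoint 249 kb above the gene start. It joined the CEBPB anchor with 12 PETs in control, 16 in senescent shcontrol, 11 in shMETTL3 and 12 in shMETTL14, and the interaction was a called loop (at least 4 PETs, deposited false discovery rate 0.01 or less) in every library. In CPM these were 12.0 (6.21 to 21.0), 29.0 (16.6 to 47.1), 17.6 (8.80 to 31.5) and 12.8 (6.62 to 22.4). Senescent shcontrol was highest, at 2.41 times control (1.07 to 5.58), and shMETTL14 stood at 0.442 of senescent shcontrol (0.191 to 0.996) and shMETTL3 at 0.608 (0.255 to 1.40). The intervals are wide, and the ones that exclude 1 do so narrowly. This partner was picked by its summed CPM, to which senescent shcontrol gave the most, so these ratios are no test of a difference. As a share of the PETs of the CEBPB anchor, this partner held 7.06%, 16.3%, 10.5% and 11.1%. Its own anchor had the most PETs of the locus in every library, 384, 281, 399 and 490, with 18, 16, 20 and 21 called loops, and 2.45% to 5.69% of its PETs went to CEBPB. It collected 17.0% of the PETs of the locus in control and 24.7% to 25.8% in the senescent libraries, with 18 kb covered in control and 15.2 kb in the senescent set.

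Other partners of CEBPB changed rank between libraries. The anchor from 48918339 to 48933197, 119 kb above the gene start, had 4 PETs to CEBPB in control, 8 in senescent shcontrol, 14 in shMETTL3 and 4 in shMETTL14, and was the leading partner in shMETTL3. The anchor from 48898530 to 48916177, 100.2 kb above, had 14, 2, 8 and 4 and led in control. The anchor from 48856331 to 48880780, 61.4 kb above, had 10, 6, 3 and 12, level with the distal anchor in shMETTL14. At the anchor from 49035938 to 49045823 the counts were 7, 7, 3 and 2, and shMETTL14 stood at 0.168 of senescent shcontrol (0.0171 to 0.885). The remaining partners among the 10 strongest had 1 to 11 PETs per library. The farthest partner with at least 4 PETs in a library lay from 49173464 to 49182065, 371 kb above, with 4, 1, 2 and 3 PETs. Over the 11 named partners and 3 comparisons, 3 of 33 unadjusted intervals excluded 1. The partners were picked by the same counts, and the share over all anchor pairs was not computed, so this count is no test. The CEBPB anchor had contacts with 74 merged anchors in all, and 17 of them occurred in every library.

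**Figure D4:**
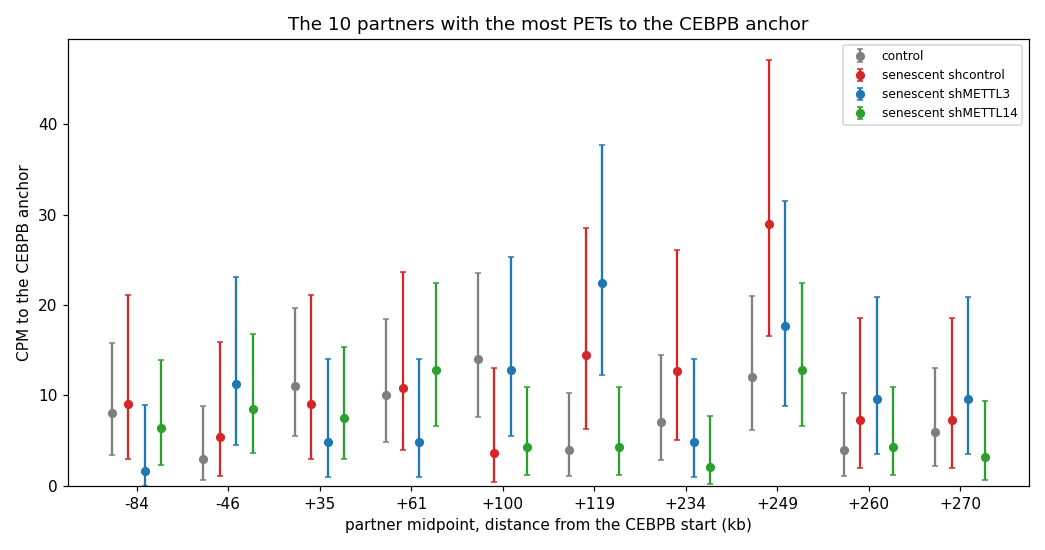
CPM (y axis) between the CEBPB anchor and its 10 strongest partners, ordered by distance of the partner midpoint from the gene start (x axis, kb), with exact Poisson intervals of 95% as error bars. The distal anchor at 249 kb is highest in senescent shcontrol with 29.0, and the intervals are wide at these counts.

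CEBPD had few partners that recurred. Its anchor touched 36 merged anchors in the libraries together, and 3 of them occurred in all 4. In senescent shcontrol the leading partner lay from 48433699 to 48440248, at -214 kb from the gene start, with 7 PETs, where control had 1, shMETTL3 had 1 and shMETTL14 had 3. Senescent shcontrol stood at 12.7 times control (1.63 to 571) and shMETTL3 at 0.126 of senescent shcontrol (0.0028 to 0.984). This partner was singled out by its count in senescent shcontrol, so these ratios are no test of a difference. In control the leading partner was the anchor from 48568295 to 48576020 with 8 PETs, against 0 of 18 in senescent shcontrol (up to 16.7% by 3 counts), 3 in shMETTL3 and 1 in shMETTL14. The anchor from 48506174 to 48526759, at -134 kb, had 4, 1, 4 and 5 PETs. The farthest with at least 4 PETs, from 48420587 to 48429354, had 4, 0, 3 and 0. It lies close to the leading partner of senescent shcontrol, and these anchors were not pooled. The ratios of that partner therefore depend on how PETs were split between them. Over 10 named partners, 2 of 30 unadjusted intervals excluded 1, and the rest held 0 to 4 PETs per library. Here too the partners were picked by the same counts, and no share over all anchor pairs was computed.

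Called loops numbered 91 at the CEBPB locus in control, 34 in senescent shcontrol, 49 in shMETTL3 and 49 in shMETTL14. With all libraries thinned to 552029 PETs the counts were 62, 34, 42 and 33, so control kept the most. Control also had the most called loops over the whole library at that depth, 16785 against 13388, 13705 and 14580 in the same order. Anchors covered 204 kb of the locus in control and 128 kb in the senescent set. The part of this difference in the loop counts was not tested. The CEBPB anchor, 13.8 kb in control and 6.5 kb in the senescent set, took part in 13, 6, 5 and 3 called loops. At equal depth it took part in 7, 6, 4 and 1. The loop to the distal anchor and the loop to the neighbouring anchor from 49065242 to 49069109 were called in all 4 libraries at full depth. The loop to the anchor from 48918339 to 48933197 was called in senescent shcontrol and shMETTL3 alone, and those to the anchors from 49075421 and from 49124464 in every library but shMETTL14. The strongest loop of the locus did not involve the gene in any library. In control the strongest joined the anchors from 48898530 and from 48918339 with 97 PETs. In each senescent library it joined the anchor from 49038182 to 49045796 to the distal anchor, with 45, 71 and 79 PETs. At CEBPD the called loops were 8, 3, 2 and 3, and 4, 3, 2 and 3 at equal depth. The CEBPD anchor took part in 2 of them in control, 1 in senescent shcontrol and 0 in both knockdown libraries. These numbered 1, 1, 0 and 0 at equal depth. The 1 in senescent shcontrol was the loop of 7 PETs over 213 kb.

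**Figure D5:**
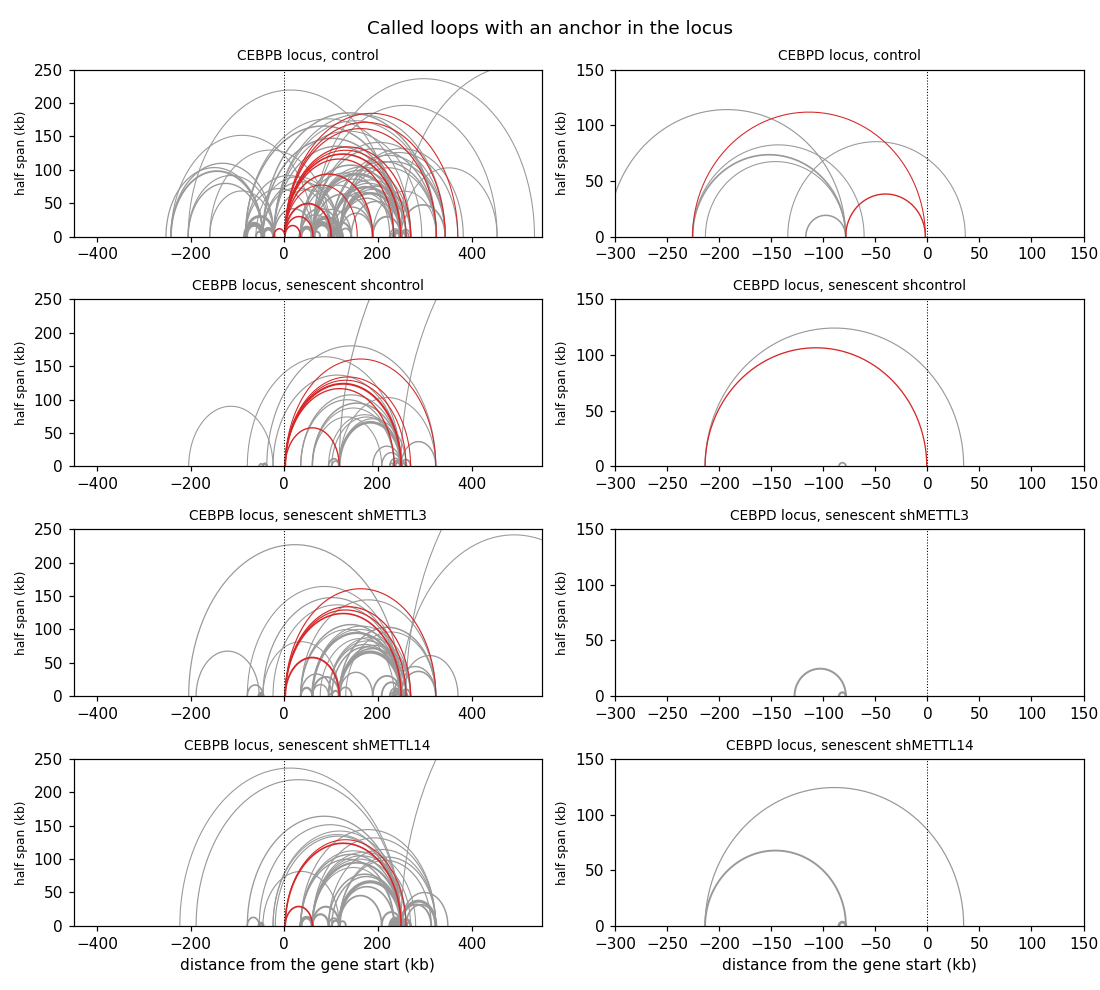
Called loops with an anchor in the CEBPB locus (left) or the CEBPD locus (right) in the 4 libraries, drawn as arcs between anchor midpoints by distance from the gene start (x axis, kb) with height (y axis) growing with span and thicker lines for more PETs. Loops of the gene anchor are red, 13 at CEBPB in control and 6, 5 and 3 in the senescent libraries, and arcs that run past the frame are cut off. Loops are shown at full depth, and control and the senescent libraries use different anchors.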

How the data were processed

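H3K27ac HiChIP was measured in 4 IMR90 libraries, 1 per group. Per the labels' protocols, formaldehyde-fixed chromatin was digested by MboI before ligation, and Tn5 was used to make the libraries. Per the submitters' processing notes, HiC-Pro 3.1.0 and hg19 were used, and the sources used here do not name the program that called interactions. The deposited files hold 8 columns with no header. The deposited column 7 was read as a raw count of PETs and the deposited column 8 as the authors' q-value (false discovery rate), from their values. Positions are counted from 1.

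Groups came from the treatment label (control) and the genotype label (the others). The gene anchor overlaps the gene or the 2 kb before its start. Overlapping anchors (1 bp) were merged over all libraries, across the whole genome. Named partners are the 10 with the most scaled PETs to the gene anchor plus the farthest with at least 4 in a library. Levels carry exact Poisson intervals, shares Clopper-Pearson intervals and ratios conditional binomial intervals, at 95%. The size rule used a pseudocount of 1 CPM. Tiles needed at least 100 PETs over both libraries. Thinning drew PETs without replacement (seed 1), and each interaction kept its deposited q-value. TMM factors came from edgeR 4.0.16 in R 4.3.3 over anchors shared by both sets, and the rest from Python 3.11.15 with SciPy 1.17.1. The size rule was tested on simulated data. Promoters are RefSeq, GRCh38.p14. Members and lists were chosen with earlier results of these data known. Alternatives were scaling, filters, anchor sets, depth and thresholds.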

Additional observations from a re-analysis of the deposited data

How the results depend on the processing

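Over 28 results and 97 alternatives, 68 values stayed within the counting interval of the main value (within 1.5 times for loop counts) and 26 moved. The other 3 were ratios whose main interval excluded 1 and whose value crossed to the other side of 1. These 3 concern senescent shcontrol over control. Per covered kb the CEBPB locus stood at 1.451 and the CEBPD locus at 1.374, and a value per covered kb over the genome is not given. With both ends in shared anchors CEBPD stood at 1.176 (0.896 to 1.54), where all such PETs of the library stood at 1.24. A rise at CEBPD was therefore not shown in that setting. By construction these settings remove PETs or length of the control anchor set.

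For the CEBPB locus in senescent shcontrol over control, the ratio was 0.6908 in interactions of at least 4 PETs, 0.9917 with both ends in shared anchors and 0.8254 without the distal anchor, a setting chosen after seeing the data. Its gene anchor stood at 2.21 per covered kb. In interactions of at least 4 PETs the CEBPB locus stood at 1.391 in shMETTL3 and 1.157 in shMETTL14 over senescent shcontrol, and the CEBPD locus at 1.331 in shMETTL14. The cause was not tested.

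With at least 6 PETs, called loops at CEBPB were 19 in senescent shcontrol and 32 in shMETTL14. In control at CEBPD they were 3 with at least 6 PETs, 4 at equal depth and 5 at a false discovery rate of at most 0.001.

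The share of PETs at 100 kb or more fell in interactions of at least 4 PETs. At CEBPB it was 33.87% in control, 29.8% in senescent shcontrol, 28.72% in shMETTL3 and 22.44% in shMETTL14, and at CEBPD 32.03%, 34.29%, 0% and 32.91%. Without spans under 20 kb it was 58.53%, 63.19%, 60.66% and 57.52% at CEBPB, and 68.11% in control and 67.14% in shMETTL14 at CEBPD.

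The ratio of the CEBPB locus in shMETTL3 and that of its gene anchor in shMETTL14 kept their direction under every alternative run. Taking anchors within 5 kb of the gene picked the same CEBPB anchor, so that alternative could not differ. The same held for the CEBPD anchor in both knockdown comparisons. These values are among the 68 that stayed within the interval. Ratios whose interval held 1 crossed it in places: the CEBPB gene anchor in senescent shcontrol over control stood at 0.8643 to 2.21, and in shMETTL3 it was 1.014 without the distal anchor. For the CEBPD gene anchor in shMETTL3, interactions of at least 4 PETs gave no value. No paired analysis was possible because each group is 1 library. Depth limits the CEBPD gene anchor, with 14 to 55 PETs per library.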
